A study of Mus musculus with 6 samples.

Results

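Setdb1 knockdown libraries of a mouse hepatocyte line were examined for 10 immediate-early response genes that lie outside the EGR, AP-1, KLF, DUSP and NR4A families: Ier2, Ier3, Ier5, Btg2, Plk3, Rhob, Zfp36, Maff, Csrnp1 and Gadd45b. They were taken by gene symbol from the 25416 genes listed, and each symbol matched 1 row. AML12 is a hepatocyte line made from mice with a human TGF alpha transgene, so all libraries share that transgene, as they do the same medium with bovine serum, insulin, transferrin and selenous acid. The siSetdb1 group (n = 3) received a small interfering RNA against Setdb1, and the siNC group (n = 3) a scrambled RNA. Both RNAs were delivered with the reagent INTERFERin, at an amount that the labels write as 50 nm, and polyadenylated RNA was taken 72 h later. The comparison asks which transcripts differ when the mRNA of SETDB1, a methyltransferase that marks histone H3 at lysine 9, is reduced. The labels do not say whether replicates were separate cultures. The p-values therefore reflect the spread among these libraries alone, and that spread may be technical.

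Immediate-early genes are switched on within minutes of a growth factor or stress signal, from transcription factors already present in the cell. ERK and p38 kinases act on serum response factor, its ternary complex partners and CREB at many of their promoters, and NF-kB and p53 act on others. Their mRNAs are usually short-lived, and many carry AU-rich elements in the 3′ untranslated region (UTR), to which the protein ZFP36 binds to bring in the CCR4-NOT deadenylase. In liver, genes of this class are known for their rapid induction after partial hepatectomy.

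Setdb1 mRNA was at 4.29, 4.21 and 3.29 FPKM (reads per kilobase of exon, scaled to a fixed library total) in siSetdb1, against 8.41, 8.545 and 9.43 FPKM in siNC. The mean was 55.3% lower, and the groups did not overlap. The libraries held 16790582 to 17835060 reads. On the first principal component, which held 54.8% of the variance, siNC replicate 1 was at 26.7 against 11.7 and 10.8 for the other siNC libraries. All 11 hepatocyte markers examined were above 0 in each library, with Krt8 and Krt18 at 1160 to 2090 FPKM. Of these markers 1 was higher in siSetdb1 (Krt18, log2 fold change 0.30, adjusted p = 0.0364), 3 were lower (Ttr -1.91, Trf -1.39 and Cebpa -0.39, adjusted p = 0.0247, 0.00816 and 0.0484) and 7 did not pass (limma). Alb, the gene of albumin, was among those that did not pass, at 1.45 to 4.5 FPKM in siSetdb1 and 4.05 to 14.3 FPKM in siNC (adjusted p = 0.107, limma). Cebpa was near the floor in all libraries, at 0.176 to 0.447 FPKM in siSetdb1 and 0.7 to 0.729 FPKM in siNC. It met the filter on low values, given below, only with its siNC libraries counted. With that filter at 2 FPKM Cebpa was not tested, and 2 markers were lower. The number lower was 1 without siNC replicate 1 or 3 or siSetdb1 replicate 1 or 2, and the number higher was 0 without any 1 library other than siNC replicate 1. Among all genes tested, 15.1% passed in either direction with all libraries. Of 14 markers of blood, endothelial and mesenchymal cells, 12 were listed, and these summed to 2.7 to 3.57 FPKM in siSetdb1 and 4.52 to 6.62 FPKM in siNC. Most of each sum was Cd68, so the sums do not show that these markers fell as a set. Cd68, a macrophage gene, was at 2.1 to 2.99 FPKM in siSetdb1 and 4.07 to 6.11 FPKM in siNC (log2 fold change -0.84, adjusted p = 0.012, limma) and did not pass without siSetdb1 replicate 2. The part of these markers in the results was not tested. Pecam1 was at 0 in 5 libraries and Pdgfrb in 4, whereas Cdh5, Col1a1 and Pdgfra were above 0 in all libraries. Each siSetdb1 library was above each siNC library for Cdh5 (0.0964 to 0.187 against 0.0273 to 0.0709 FPKM). The same held for Col1a1 (0.223 to 0.238 against 0.136 to 0.169 FPKM) and Pdgfra (0.115 to 0.169 against 0.0229 to 0.0535 FPKM). Csf1r and Acta2 were lower in each siSetdb1 library. Of the 12 markers only Cd68 was tested.

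Of the 10 genes, 5 were higher in siSetdb1 (Ier2, Rhob, Plk3, Csrnp1 and Maff), 1 was lower (Gadd45b) and 4 did not pass the test (Zfp36, Ier3, Btg2 and Ier5). A gene passed at an adjusted p under 0.05 (limma on log2(FPKM + 1), Benjamini-Hochberg over the 12846 genes with at least 0.5 FPKM in 3 libraries). Among all genes tested, 15.1% passed, 6.87% as higher and 8.27% as lower. All 10 genes passed the filter on low values, and none was under 3.33 FPKM in any library. The same 5 genes were above, and Gadd45b below, in each siSetdb1 library relative to each siNC library, and among all genes tested 17.6% were separated in this way as higher and 21.6% as lower. The median log2 fold change of the 10 genes was 0.392, beside -0.0182 for all genes tested. Each fold change is siSetdb1 minus siNC in log2(FPKM + 1), a scale on which changes of low genes come out too small. In a culture measured in bulk, more cells expressing a gene and more RNA per cell cannot be told apart. Per library, 201 to 4392 reads stood behind each gene.

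**Figure D1:**
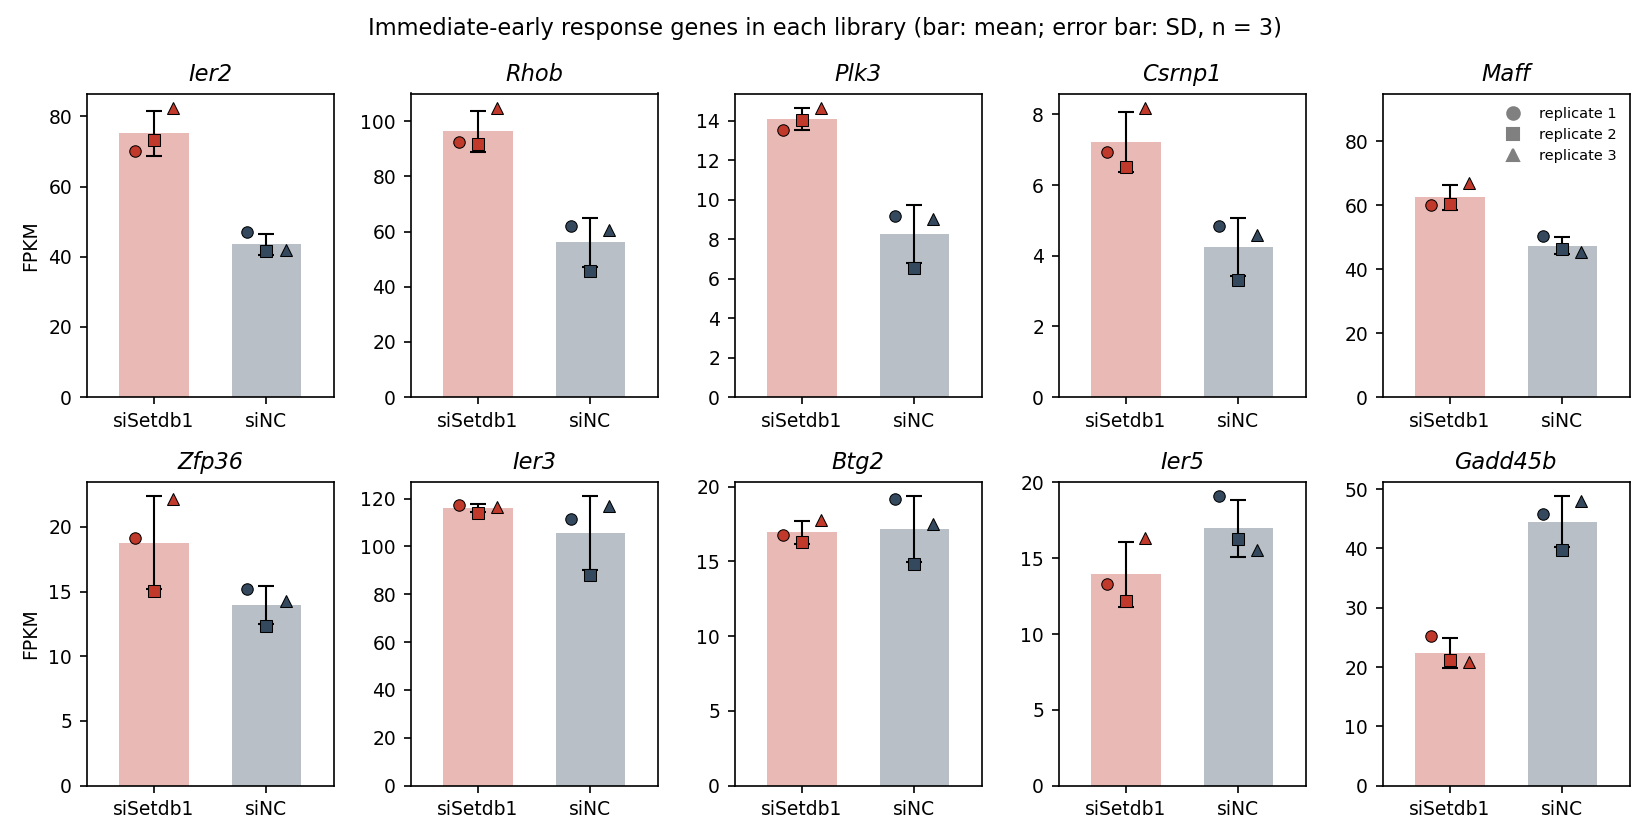
FPKM of the 10 genes in each library, with siSetdb1 left of siNC. Bars are means, error bars SD (n = 3), and symbols mark the replicate numbers. The siSetdb1 libraries lie above all siNC libraries for Ier2, Rhob, Plk3, Csrnp1 and Maff and below them for Gadd45b.

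The AU-rich sites in these mRNAs are shown first, since they are the feature by which ZFP36, itself among the 10 genes, recognises its targets. The nonamer UUAUUUAUU, a strong ZFP36 binding sequence, was searched in the longest 3′ UTR of each gene in GENCODE M21 (GRCm38). It was found in Plk3 and Maff at 2 places each and in Zfp36 and Csrnp1 at 1 place each, so in 4 of the 10 genes. Among 10451 tested genes with an annotated 3′ UTR, 8.1% held it. The sites are printed 5′ to 3′ as RNA with the nonamer in capitals and the flanks in lower case.
Plk3 first site: gaccacuuUUAUUUAUUaacagaca
Plk3 second site: acagacauUUAUUUAUUgggaugug
Maff first site: ccacacucUUAUUUAUUgcacgaau
Maff second site: cccagaguUUAUUUAUUuucugacu
Csrnp1 site: cucugaauUUAUUUAUUuuuuuaug
Zfp36 site: ugacgacuUUAUUUAUUguauuaag
The Plk3 sites start 251 and 269 bases after the stop codon, in a 3′ UTR of 332 bases, the shortest among the 10 genes. The Maff sites start at 933 and 1132 of 1221 bases, the Csrnp1 site at 155 of 1077 and the Zfp36 site at 589 of 774. The shorter pentamer AUUUA, which lies inside the nonamer, occurred at least 3 times in 7 of the 10 genes, against 38.3% of tested genes. Ier2 and Gadd45b, which moved in opposite directions, held no pentamer in 3′ UTRs of 755 and 558 bases. Ier3, which is on the list of known ZFP36 targets used below, held no nonamer but 5 pentamers in 613 bases. Of the 5 genes that were higher, 3 held a nonamer (Plk3, Maff and Csrnp1), and Ier2 and Rhob did not. A match describes the sequence and is not a measured binding site.

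Ier2 and its relatives of the IER family are nuclear regulators of transcription. Ier2 (ENSMUSG00000053560, chromosome 8, 84661331 to 84662854, minus strand, mm10) was at 70.1, 73.1 and 82.4 FPKM in siSetdb1 and at 47.1, 41.7 and 42.0 FPKM in siNC. Every siSetdb1 library was above every siNC library. The means were 75.2 ± 6.42 and 43.6 ± 3.02 FPKM (SD, n = 3 each), a ratio of 1.72, and the log2 fold change was 0.77 with an SE of 0.086 (adjusted p = 0.00241, limma). By level it stood at rank 3 of the 10 genes in siSetdb1 and at rank 5 in siNC.

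Ier5 (ENSMUSG00000056708, chromosome 1, 155096361 to 155099636, minus strand), whose protein brings the phosphatase PP2A to the heat shock factor HSF1, did not follow Ier2. It was at 13.3, 12.2 and 16.3 FPKM in siSetdb1 and at 19.1, 16.3 and 15.55 FPKM in siNC. siSetdb1 replicate 3 lay inside the siNC range, and the other siSetdb1 libraries lay below it. The log2 fold change was -0.27 (95% interval -0.55 to 0.009, adjusted p = 0.166, limma). Ier5l, the nearest relative of Ier5, fell to 1.06 ± 0.07 FPKM in siSetdb1, against 1.87 ± 0.29 FPKM in siNC (log2 fold change -0.48, adjusted p = 0.0221, limma).

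Csrnp1 encodes a nuclear protein rich in cysteine and serine that binds DNA. Csrnp1 (ENSMUSG00000032515, chromosome 9, 119971163 to 119984658, minus strand) had the lowest level of the 10 genes in both groups, at 6.95, 6.53 and 8.19 FPKM in siSetdb1 and 4.85, 3.33 and 4.59 FPKM in siNC. The groups did not overlap, with siNC replicate 2 the lowest library. The means were 7.22 ± 0.862 and 4.26 ± 0.817 FPKM (SD, n = 3 each), a ratio of 1.70, and the log2 fold change was 0.65 with an SE of 0.13 (adjusted p = 0.019, limma). The adjusted p was 0.0645 without siSetdb1 replicate 1, 0.0583 without siSetdb1 replicate 3 and 0.0645 with no filter on low values. Its transcribed region overlaps annotated transcripts of Cx3cr1 on the same strand and of 1700019L13Rik on the opposite strand, and both of these genes were at 0.0588 FPKM or less in each library. The relative Csrnp2 was at 3.26 ± 0.09 FPKM in siSetdb1 and 3.22 ± 0.25 FPKM in siNC (log2 fold change 0.02, adjusted p = 0.909, limma).

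MAFF is a small MAF protein without an activation domain of its own, which pairs with factors such as NRF2 at antioxidant response elements. Maff (ENSMUSG00000042622, chromosome 15, 79346621 to 79359076, plus strand) was at 60.0, 60.6 and 67.1 FPKM in siSetdb1 and at 50.4, 46.3 and 45.4 FPKM in siNC. The groups did not overlap. The means were 62.6 ± 3.94 and 47.4 ± 2.64 FPKM (SD, n = 3 each), a ratio of 1.32, and the log2 fold change was 0.39 with an SE of 0.075 (adjusted p = 0.0154, limma). This was the smallest of the 5 rises, and its adjusted p was 0.053 without siNC replicate 2 and 0.0511, 0.0531 and 0.0544 without siSetdb1 replicates 1, 2 and 3. The other small MAF genes Mafk and Mafg also rose, Mafk to 11.4 ± 0.65 FPKM in siSetdb1, against 7.61 ± 0.92 FPKM in siNC (log2 fold change 0.53, adjusted p = 0.0117, limma), and Mafg to 22.0 ± 0.71 FPKM in siSetdb1, against 18.4 ± 0.74 FPKM in siNC (0.25, adjusted p = 0.043, limma). Summed over Maff, Mafg and Mafk, the small MAF level was 96.0 ± 3.65 FPKM in siSetdb1 and 73.4 ± 3.32 FPKM in siNC (SD, n = 3 each). Maf, a large MAF factor, had a log2 fold change of -0.06 (adjusted p = 0.792, limma).

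Rhob encodes an endosomal GTPase that, unlike its relatives RHOA and RHOC, is short-lived and induced by growth factors and DNA damage. Rhob (ENSMUSG00000054364, chromosome 12, 8497661 to 8500009, minus strand) was at 92.4, 91.8 and 104.8 FPKM in siSetdb1 and at 61.9, 45.8 and 60.6 FPKM in siNC. The groups did not overlap, and siNC replicate 2 was the lowest library. The means were 96.3 ± 7.37 and 56.1 ± 8.95 FPKM (SD, n = 3 each), a ratio of 1.72, and the log2 fold change was 0.78 with an SE of 0.12 (adjusted p = 0.00784, limma). It stood at rank 140 of 12846 from the highest fold change. Rhoa was at 64.1 ± 1.49 FPKM in siSetdb1 and 63.0 ± 4.88 FPKM in siNC, and Rhoc at 66.9 ± 5.35 FPKM in siSetdb1 and 77.0 ± 6.72 FPKM in siNC, and neither passed (adjusted p = 0.831 and 0.173, limma). The ratio of Rhob to Rhoa, chosen after the values were seen, was 1.46, 1.45 and 1.59 in siSetdb1 and 0.902, 0.762 and 1.01 in siNC.

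PLK3 is a polo-like kinase of the stress and DNA damage responses. Plk3 (ENSMUSG00000028680, chromosome 4, 117128655 to 117133963, minus strand) was at 13.5, 14.0 and 14.6 FPKM in siSetdb1 and at 9.15, 6.56 and 9.04 FPKM in siNC. The siSetdb1 libraries lay close together, and siNC replicate 2 was again the lowest. The means were 14.1 ± 0.553 and 8.25 ± 1.46 FPKM (SD, n = 3 each), a ratio of 1.70, and the log2 fold change was 0.72 with an SE of 0.12 (adjusted p = 0.0096, limma). Plk1, the mitotic kinase of the family, fell to 33.4 ± 2.13 FPKM in siSetdb1, against 43.4 ± 3.32 FPKM in siNC (log2 fold change -0.37, adjusted p = 0.0257, limma). Plk2, the other stress-inducible relative, was at 41.7 ± 1.43 FPKM in siSetdb1 and 35.01 ± 3.73 FPKM in siNC and did not pass (0.25, adjusted p = 0.093, limma). The opposite-strand gene Tctex1d4, which overlaps the end of Plk3, was at 0.314 FPKM or less in each library.

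GADD45B binds and activates the stress kinase MAP3K4 and blocks MKK7, and its gene responds to NF-kB and TGF beta. Gadd45b (ENSMUSG00000015312, chromosome 10, 80930073 to 80932204, plus strand) was the member that fell, with 25.25, 21.1 and 20.8 FPKM in siSetdb1 and 45.7, 39.7 and 48.0 FPKM in siNC. Every siSetdb1 library was below every siNC library. The means were 22.4 ± 2.47 and 44.5 ± 4.28 FPKM (SD, n = 3 each), so that the siSetdb1 mean was 50.35% of the siNC mean, and the log2 fold change was -0.96 with an SE of 0.10 (adjusted p = 0.0022, limma). It stood at rank 61 of 12846 from the lowest fold change, and no alternative or left-out library ended the call. Its relatives Gadd45a and Gadd45g had log2 fold changes of -0.003 (95% interval -0.27 to 0.27) and -0.02 (-0.26 to 0.21), with adjusted p = 0.988 and 0.893 (limma). The ratio of Gadd45b to Gadd45g, chosen after the values were seen, was 0.466, 0.368 and 0.359 in siSetdb1 and 0.682, 0.77 and 0.874 in siNC. The summed level of the Gadd45 genes was 83.9 ± 1.15 FPKM in siSetdb1 and 107.0 ± 10.4 FPKM in siNC.

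**Figure D2:**
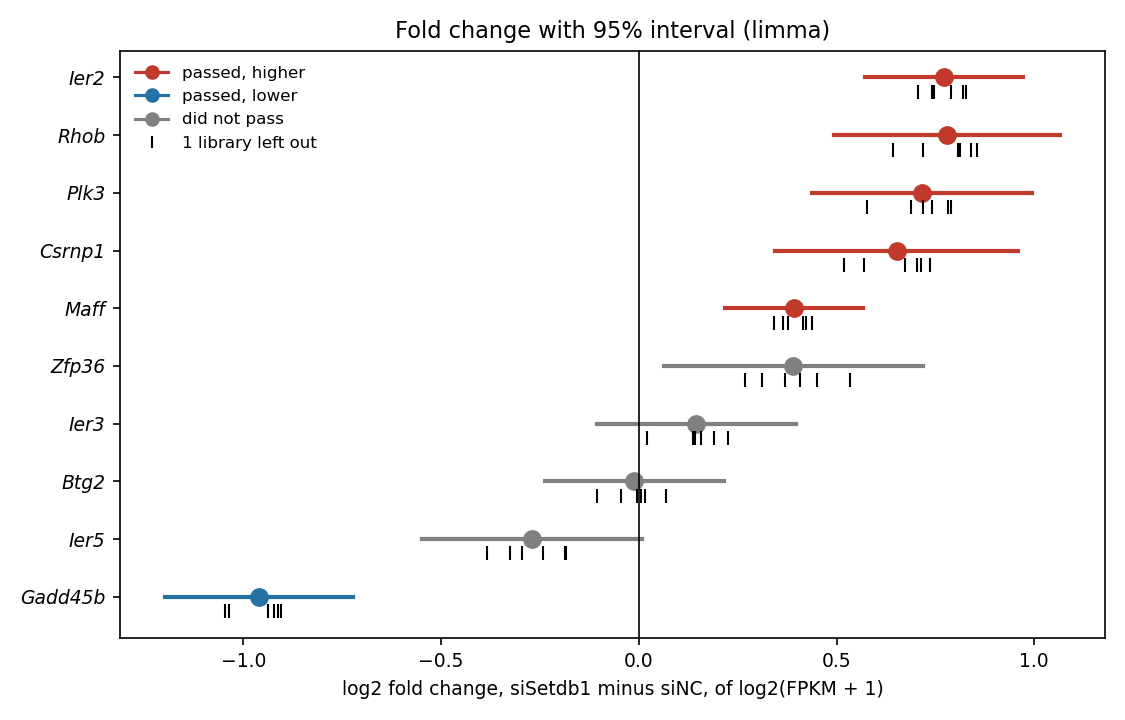
Log2 fold change (siSetdb1 minus siNC, log2(FPKM + 1) scale) of each gene with its 95% interval from limma. Short black ticks under each line are the fold changes with 1 library left out, and those of the 5 higher genes and of Gadd45b stay on 1 side of 0.

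ZFP36 (tristetraprolin) binds AU-rich elements and lowers the stability of mRNAs that carry them, its own included. Zfp36 (ENSMUSG00000044786, chromosome 7, 28376784 to 28380253, minus strand) was at 19.1, 15.1 and 22.2 FPKM in siSetdb1 and at 15.2, 12.4 and 14.3 FPKM in siNC. siSetdb1 replicate 2 lay inside the siNC range and the others lay above it. The log2 fold change was 0.39 (SE 0.14, 95% interval 0.063 to 0.72), close to that of Maff with a wider spread, and it did not pass (adjusted p = 0.1015, limma). The antisense transcript Gm44710, which overlaps Zfp36, was at 0.249 to 0.952 FPKM in siSetdb1 and 0.732 to 0.885 FPKM in siNC, and reads were not stated to keep their strand. Zfp36l1 fell to 18.0 ± 0.66 FPKM in siSetdb1, against 21.8 ± 1.08 FPKM in siNC (log2 fold change -0.27, adjusted p = 0.0394, limma). Zfp36l2, the most abundant gene of the family, was at 161 ± 15.1 FPKM in siSetdb1 and 132 ± 3.5 FPKM in siNC (0.29, adjusted p = 0.052, limma).

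mRNAs known as ZFP36 targets in mouse cells did not share a direction. Of 15 listed targets, 13 were in the table and 9 were tested, of which 4 were higher (Ptgs2, Csf2, Plaur and Myc), 1 was lower (Ccl2) and 4 did not pass. The median log2 fold change of these 9 targets was 0.249. Among all genes tested, 6.87% were higher and 8.27% were lower. Ptgs2, the inducible cyclooxygenase gene, rose to 4.96 ± 0.29 FPKM in siSetdb1, against 1.81 ± 0.73 FPKM in siNC (log2 fold change 1.11, adjusted p = 0.0071, limma), and the growth factor gene Csf2 rose to 1.70 ± 0.53 FPKM in siSetdb1, against 0.462 ± 0.22 FPKM in siNC (0.88, adjusted p = 0.0161, limma). Csf2 was near the floor in siNC and met the filter on low values only with its siSetdb1 libraries counted. With the filter at 2 FPKM it was not tested, and 3 targets were higher. The chemokine gene Ccl2 had a log2 fold change of -2.66 (adjusted p = 0.000116, limma). The number of targets that were higher was 1 without siSetdb1 replicate 2 and 1 with no filter on low values, and the number lower was 2 without siNC replicate 2.

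Ier3, a survival factor that ERK phosphorylates and that is also a listed ZFP36 target, had the highest level of the 10 genes in both groups. Ier3 (ENSMUSG00000003541, chromosome 17, 35821684 to 35822923, plus strand) was at 117.2, 114.2 and 116.6 FPKM in siSetdb1 and at 111.5, 87.95 and 117.0 FPKM in siNC. siNC replicates 1 and 3 lay near the siSetdb1 values, and siNC replicate 2 lay below. The log2 fold change was 0.15 (95% interval -0.11 to 0.40, adjusted p = 0.389, limma).

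BTG2 is an antiproliferative protein that binds the CCR4-NOT deadenylases and is a known p53 target. Btg2 (ENSMUSG00000020423, chromosome 1, 134075170 to 134079120, minus strand) was at 16.8, 16.3 and 17.8 FPKM in siSetdb1 and at 19.2, 14.8 and 17.5 FPKM in siNC. All siSetdb1 libraries lay inside the siNC range. The log2 fold change was -0.01 (95% interval -0.24 to 0.22, adjusted p = 0.952, limma), with a sign that turned under other scaling. Btg3 fell to 1.61 ± 0.14 FPKM in siSetdb1, against 2.34 ± 0.15 FPKM in siNC (log2 fold change -0.35, adjusted p = 0.0345, limma).

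Over the relatives as a whole, 2 of 18 tested genes were higher (Mafk and Mafg), 4 were lower (Ier5l, Plk1, Btg3 and Zfp36l1) and 12 did not pass. The shares over all genes tested were 6.87% higher and 8.27% lower. The median log2 fold change of the relatives was -0.014. The listed relatives numbered 22, of which 21 were in the table. The number lower was 2 without siNC replicate 3, and 0 without siNC replicate 2, without any 1 siSetdb1 library, with the replicate number as a block and with no filter on low values (limma), against 4 at an unadjusted p under 0.05 and 3 with limma-voom with all libraries. The number higher was 0 without siSetdb1 replicate 2, 1 without siNC replicate 2 or either other siSetdb1 library, and 3 without siNC replicate 1. Whether the members and their relatives differ in fold change was not tested.

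**Figure D3:**
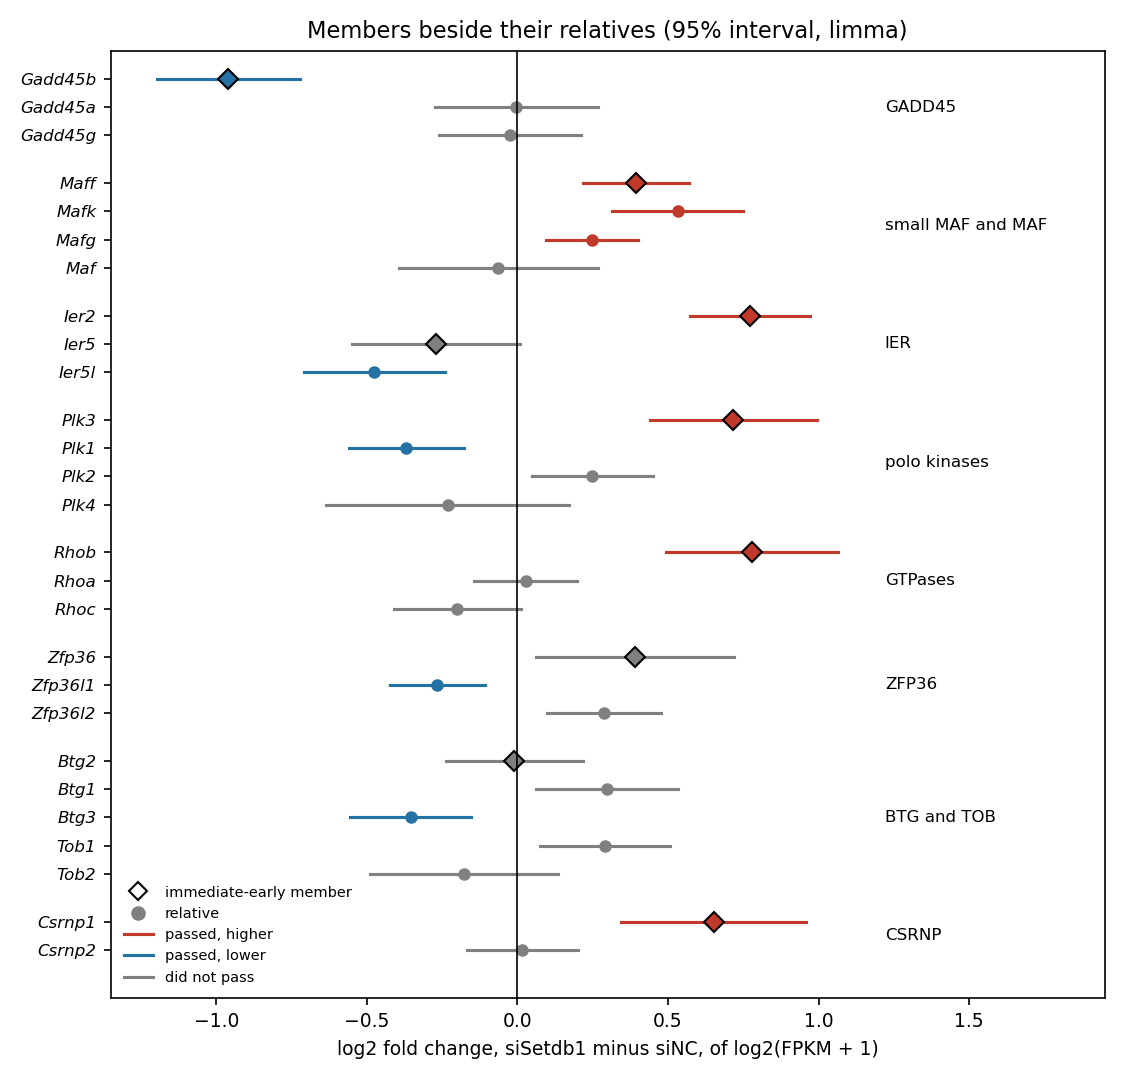
Log2 fold changes (siSetdb1 minus siNC) of 9 of the 10 genes (diamonds; Ier3 had no relative on the list) beside their tested relatives (circles), by family, with 95% intervals from limma. Gadd45b, Rhob and Csrnp1 lie apart from relatives near 0, whereas Maff lies beside Mafk and Mafg.

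Promoters of Plk3, Rhob, Zfp36 and Gadd45b are printed to set genes that rose beside 1 that did not pass and 1 that fell. Each line gives the 150 bases before the RefSeq transcription start (GRCm38.p6), 5′ to 3′ on the gene's strand. The Zfp36 window lies wholly inside the gene as listed in these data (28376784 to 28380253), so its matches are not upstream of that listed gene. The Gadd45b window runs past the listed start at 80930073. Capitals mark TGACG (the core of the CREB element, on either strand), the CArG box of serum response factor, GCGNGGGCG (the EGR site, on either strand) and TATAAA.
Plk3, chr4:117133964-117134113, minus strand: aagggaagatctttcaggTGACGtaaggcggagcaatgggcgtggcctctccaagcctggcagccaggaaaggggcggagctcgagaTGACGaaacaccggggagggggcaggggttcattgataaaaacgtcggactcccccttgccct
Rhob, chr12:8500010-8500159, minus strand: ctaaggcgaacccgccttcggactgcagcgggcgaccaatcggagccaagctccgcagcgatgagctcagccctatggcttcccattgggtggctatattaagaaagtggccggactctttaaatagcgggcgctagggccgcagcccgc
Zfp36, chr7:28379229-28379378, minus strand: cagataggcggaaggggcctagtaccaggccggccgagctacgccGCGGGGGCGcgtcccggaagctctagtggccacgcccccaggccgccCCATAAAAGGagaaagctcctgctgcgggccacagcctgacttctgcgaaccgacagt
Gadd45b, chr10:80929941-80930090, plus strand: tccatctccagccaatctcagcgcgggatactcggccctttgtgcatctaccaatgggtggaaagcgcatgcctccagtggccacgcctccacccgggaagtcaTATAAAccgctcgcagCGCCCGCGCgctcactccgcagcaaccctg
Promoters of 9 of the 10 genes were matched, and Ier2 was not. Within 250 bases before the start, TGACG on either strand was found in Plk3, Csrnp1 and Btg2, against 17.8% of 32851 promoters, and Btg2 held it as the full palindrome TGACGTCA, against 1.55% of promoters. GCGNGGGCG was found in Btg2, Zfp36 and Gadd45b, against 4.7% of promoters, and in none of the higher genes with a matched promoter. The 32851 promoters were not limited to tested genes, as the AU-rich background was, and were not matched for base composition. The CArG box was found in Zfp36 alone of the 9, against 1.47%. The AP-1 site TGANTCA was found in none of the 9, against 6.75%, and no match says only that these letters are not in this window.

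Within each group, the same library was often the extreme. siNC replicate 2 was the lowest siNC library for 8 of the 10 genes and the highest for 0, whereas over all genes tested it was the lowest for 33.0%. siSetdb1 replicate 3 was the highest siSetdb1 library for 8 of the 10 genes, against 30.8% of all genes tested. For 16 tested genes of the EGR, AP-1, KLF, DUSP and NR4A families it was the highest for 8 and the lowest for 6. Its Setdb1 level was the lowest, at 3.29 FPKM, and a relation between these levels was not tested. siNC replicate 1, which stood apart on the first component, was the highest siNC library for 8 of the 10 genes, against 43.8% of all genes. Without it the fold changes of Ier2, Rhob, Plk3, Csrnp1, Maff and Gadd45b were 0.83, 0.86, 0.79, 0.74, 0.44 and -0.94 on the log2 scale, and all 6 passed (adjusted p = 0.00201 to 0.0156, limma). Without siNC replicate 2 the fold changes of the same genes were 0.74, 0.64, 0.58, 0.52, 0.38 and -1.04, and Maff did not pass.

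**Figure D4:**
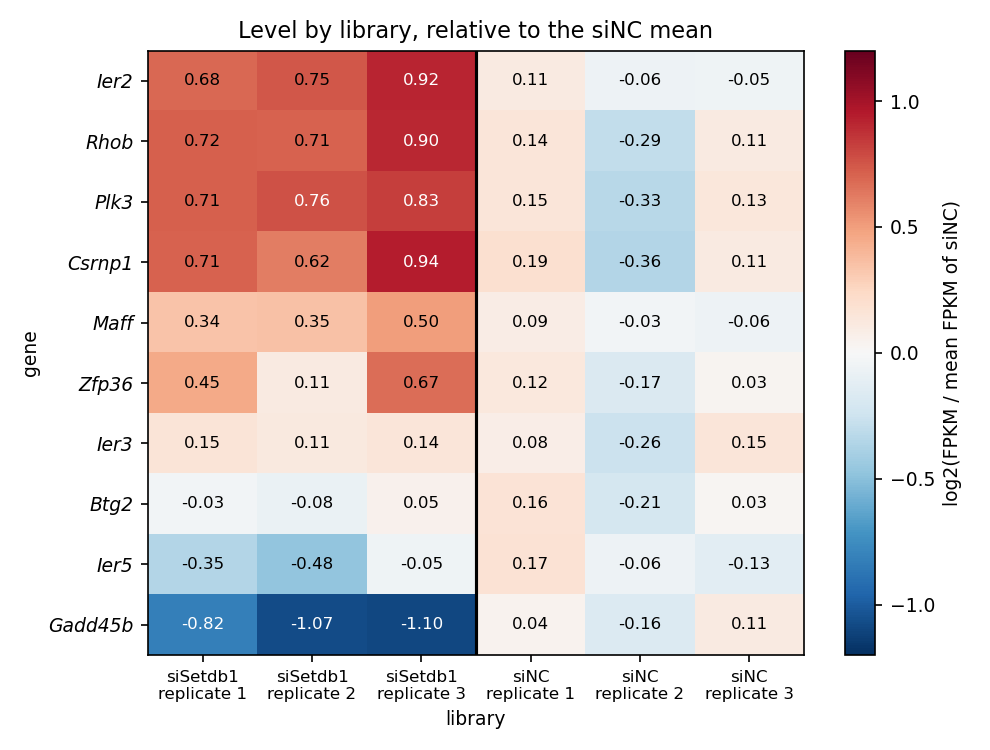
Level of each gene in each library as log2 of FPKM over the siNC mean, with siSetdb1 libraries left of the line and siNC libraries right of it. Red is higher and blue lower than the siNC mean. siSetdb1 replicate 3 is the highest siSetdb1 library for 8 of the 10 genes, with values such as 0.92 for Ier2 and 0.94 for Csrnp1, and siNC replicate 2 is below 0 for all 10 genes.

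Early-response genes of other families were set beside the 10 genes. Of 23 listed genes of the EGR, AP-1, KLF, DUSP and NR4A families, 16 were tested, of which 10 were higher, 0 were lower and 6 did not pass (limma; 0 were lower at an unadjusted p under 0.05 and 0 with limma-voom). Their median log2 fold change was 0.446, and Egr1, Dusp5 and Fos had the largest changes, at 3.39, 1.67 and 1.66. In these families the number higher was 7 without siSetdb1 replicate 1 or 3 or siNC replicate 2, and 7 with no filter. It was 8 without siSetdb1 replicate 2 and 8 with the replicate number as a block. Among the 10 genes, Rhob and Ier2 rose by 0.78 and 0.77. Of 39 other primary response genes, 35 were tested, of which 9 were higher and 6 were lower, with a median of 0.0348. The number higher was 5 or 6 without siSetdb1 replicate 2 or 3 or siNC replicate 2, and the number lower was 3 without siSetdb1 replicate 2. The lists share genes: Ptgs2, Plaur and Myc, among the higher, are also counted as ZFP36 targets, and Zfp36l1, among the lower, as a relative. Ptgs2 had the largest change of those that passed, at 1.11. Shares over all genes tested were 6.87% higher and 8.27% lower. The lower genes included the NF-kB inhibitor gene Nfkbia (log2 fold change -1.09, adjusted p = 0.0022, limma) and Id3, a target of BMP signals and an inhibitor of helix-loop-helix factors, which fell to 4.56 ± 0.24 FPKM in siSetdb1, against 10.4 ± 1.28 FPKM in siNC (-1.04, adjusted p = 0.00151, limma). Of 19 tested genes for known regulators, 1 was higher and 1 was lower, beside 15.1% of all genes tested that passed in either direction. These counts were 2 and 2 without siNC replicate 1, and 0 and 0 without any 1 of the other libraries. The genes that passed with all libraries were Rps6ka4, the gene of the kinase MSK2 below ERK and p38 (log2 fold change 0.33, adjusted p = 0.037, limma), and Nfkb1, an NF-kB subunit gene (-0.28, adjusted p = 0.0289, limma). Srf and Trp53 did not pass, with log2 fold changes of 0.03 and -0.24 (adjusted p = 0.866 and 0.136, limma).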

How the data were processed

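RNA from AML12 cells (3 siSetdb1 and 3 siNC samples, grouped by title) was sequenced as single-end reads. Per the submitters' processing notes, HISAT2 2.0.4, Bowtie2 2.2.5, RSEM 1.2.12, DESeq2 1.4.5 and mm10 were named, with no role or order. The deposited table has no stated unit. Its values were FPKM made by the authors: with exon lengths of GENCODE M21, 98.8% of genes gave whole reads (tolerance 0.01) and totals of 16790582 to 17835060 reads. Ier2 gave whole reads at 1524 in place of 1522 bases.

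Genes with at least 0.5 FPKM in 3 libraries (12846) were tested on log2(FPKM + 1) with limma 3.58.1 (R 4.3.3; trended, robust prior; group as the only term; two-sided; Benjamini-Hochberg). The settings were tested on simulated reads with the same spread for all genes and no library set apart. That cannot show how they behave with a library such as siNC replicate 1. Alternatives were a pseudocount of 0.1, no filter, a filter at 2 FPKM, median-ratio scaling, limma-voom on recovered reads, a variance trend on reads, the replicate number as a block and leaving out each library. Relatives were named where they passed, with the most abundant others, and other lists by up to 3 passing genes with the largest change; genes named beyond this were chosen after their values were seen, and 1 partner gene that the rule names is not reported here. Members and lists were chosen with earlier results of these data known. The protocol names no step that keeps strand. No 2 libraries of a group were alike within sampling error (chi-square divided by its degrees of freedom, 5.06 to 26.3). FPKM is relative to each library's total, so a gain in a few abundant genes lowers the rest.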

Additional observations from a re-analysis of the deposited data

How the results depend on the processing

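The number of the 10 genes that passed as higher was 5 with all libraries and 3 to 5 with 1 library left out, being 3 without siSetdb1 replicate 1 and 3 without siSetdb1 replicate 3. The number lower was 1 in each of these fits. With no filter 4 were higher, with Csrnp1 at an adjusted p of 0.0645. With the replicate number as a block 4 were higher and 1 lower, with Maff at an adjusted p of 0.0533. The labels do not say whether samples with the same number were joined. Deviations from the group means correlated at -0.157, 0.167 and -0.172 for pairs 1, 2 and 3. For samples with unlike numbers the correlations were -0.204 to 0.283. With 3 libraries per group these values cannot decide whether the samples are paired. The block, which also leaves fewer degrees of freedom, moved the count of all genes that passed to 480 higher and 535 lower, against 883 and 1062 without it. Under the block the relatives had 1 higher and 0 lower, the regulators 0 higher and 0 lower, the partners 1 higher and 0 lower, and the hepatocyte markers 0 higher and 4 lower. Only Btg2 turned its sign, with a log2 fold change of 0.0152 with median-ratio scaling and 0.0181 with limma-voom, and -0.106 to 0.0688 with 1 library left out, being above 0 without siNC replicate 1 (0.0688), siNC replicate 3 (0.00501) and siSetdb1 replicate 2 (0.0164). Of 130 fold changes of the 10 genes over these alternatives, 117 kept direction and side of the threshold, 8 lost the call (Maff and Csrnp1) and 5 turned sign (Btg2). With limma-voom on recovered reads the log2 fold change of Csrnp1 was 0.80 in place of 0.65. Over all genes the counts ranged from 355 to 1101 higher and from 326 to 1075 lower with 1 library left out. Depth limits low genes such as Csrnp1, at 201 reads in siNC replicate 2.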

Other observations

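Genes of proteins that work with the products of the 10 genes were tested as a list. Of 23 tested, 2 were higher, 2 were lower and 19 did not pass, with a median log2 fold change of 0.0734. This is near the share over all genes tested, of which 15.1% passed in either direction. None of the partner genes was lower without siNC replicate 2 or without any 1 siSetdb1 library, and 1 was lower without siNC replicate 3 (limma). The number higher was 0 without siSetdb1 replicate 2, 3 without siNC replicate 1 and 1 without any 1 of the other libraries. Cnot6, a deadenylase subunit of the CCR4-NOT complex to which ZFP36 and BTG2 bind, was at 27.9 ± 1.61 FPKM in siSetdb1 and 36.3 ± 4.05 FPKM in siNC (log2 fold change -0.37, adjusted p = 0.0405, limma). The other listed genes of this complex did not pass, with log2 fold changes from -0.08 (Cnot3) to 0.31 (Cnot7). Ywhaz, a 14-3-3 protein gene, was at 269 ± 9.51 FPKM in siSetdb1 and 210 ± 6.04 FPKM in siNC (0.35, adjusted p = 0.0134, limma).

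Heat shock and stress genes, which handling of cells can raise together with immediate-early genes, did not pass. Of 9 listed, 6 were tested and 0 were higher or lower (limma; 3 had an unadjusted p under 0.05, 2 higher and 1 lower, and limma-voom called 0). Without siNC replicate 1, 1 was higher. The summed level of the 9 listed genes was 811.9 to 847.5 FPKM in siSetdb1 and 827.5 to 860.6 FPKM in siNC. Most of each sum was Hspa8, Atf4 and Hmox1, so the sums do not show that these genes stayed level as a set. Of the 9, the number at 0 FPKM was 2, 2 and 1 in siNC replicates 1, 2 and 3, and 0 in each siSetdb1 library. The part of handling in the results was not tested.

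The genes most like the 3 members with the largest changes were sought by the root mean square difference over 6 libraries of log2(FPKM + 1) minus the siNC mean. They were Col4a5, a basement membrane collagen gene, for Gadd45b (difference 0.0638), Flnc, the gene of an actin-binding filamin, for Rhob (0.0568) and Zbtb32, a zinc finger repressor gene, for Ier2 (0.04). Flnc was at 35.1, 37.4 and 39.75 FPKM in siSetdb1 and 22.0, 17.8 and 23.2 FPKM in siNC, with siNC replicate 2 lowest as for Rhob. Flnc was picked for its likeness to Rhob in these same libraries, so the shared lowest library is not a separate result. Zbtb32 was far below Ier2 in level, at 2.48 to 3.16 FPKM in siSetdb1 and 1.12 to 1.49 FPKM in siNC.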
